A study of Mus musculus with 4 samples.

Results

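The genes of the proteasome were followed in F123-ESCs, a male hybrid line of mouse embryonic stem cells that carries 1 genome of the S129 strain, from the mother, and 1 genome of the CAST strain, from the father. Members were taken by gene symbol (Psma, Psmb, Psmc, Psmd, Psme, Psmf or Psmg followed by a number), which gave 50 of the 24026 genes with a deposited value. The 4 libraries, replicates 1 to 4, all come from untreated cells of the genotype S129/CAST. The cells were grown with LIF on inactivated fibroblasts and then moved off these feeders for 2 passages or more before harvest. Nothing in the labels says that the libraries are separate cultures, so the spread between them may be technical. There is 1 group of samples, so the comparison the design offers is that of S129 with CAST within each library. In it, the strain of an allele and the parent it came from cannot be told apart.

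The values are RPKM of polyA RNA for each gene, allele and library, and only reads that cover a SNP between the strains enter them. Levels below are the mean of both alleles, with the SD over the 4 libraries. The reads behind the values were recovered from the steps between them, and came to between 34120417 (replicate 4) and 56627974 (replicate 1) per library. Of the stem cell markers looked at, 8 of 8 were at 1 RPKM or more, among them Nanog at 84.5 ± 11.4 RPKM and Sox2 at 125 ± 14 RPKM (SD, n = 4). The 8 fibroblast markers looked at summed to 179 to 225 RPKM per library, of which Col1a2 made up 166 ± 18 RPKM. The others were lower, with Postn at 15.4, Col3a1 at 11.4 and Col1a1 at 5.68 RPKM. Thy1 and Twist2 were at 1.57 and 1.17 RPKM, and Dcn and Lum at 0.659 and 0.0462 RPKM. The part of fibroblasts in the levels below was not tested. In bulk RNA, more cells of a type and more RNA per cell cannot be told apart.

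The proteasome is the protease that degrades proteins marked with ubiquitin. Its core particle is a barrel of stacked rings, with alpha subunits (Psma) forming the outer rings, which gate the entry, and beta subunits (Psmb) the inner ones, which hold the proteolytic sites of Psmb5, Psmb6 and Psmb7. The regulatory particle caps the barrel: its base carries ATPases (Psmc) that unfold the substrate, and its lid (Psmd) includes Psmd14, the enzyme that removes the ubiquitin chain. Interferon and immune cells replace the catalytic beta subunits by Psmb8, Psmb9 and Psmb10, which forms the immunoproteasome. Chaperones assemble the core (Psmg) and the base (Psmd5, Psmd9, Psmd10), and Psme and Psmf1 proteins activate or inhibit the barrel. The name rule also takes Psmc3ip, which encodes a recombination factor and no proteasome subunit, and Psme2b, a near copy of Psme2.

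Proteasome genes are known targets of the transcription factor NFE2L1, which binds antioxidant response elements, and ETS factors bind promoters of many widely expressed genes. RefSeq promoters (GRCm38.p6, 250 bases before to 50 after the start) were found for 42 of the 50 members. The letters CCGGAAG, an ETS motif, stood on either strand in 15 of these 42, or 35.7%, against 9.93% of all 27025 genes with a promoter and 20.7% of the 9306 such genes with at least 1 RPKM. The following windows show the motif in capitals, read along the gene, at members of the base (Psmc1, Psmd2), the lid (Psmd12, Psmd6), an activator (Psme4) and a core chaperone (Psmg1), since it lies within 70 bases before the start in each. CTTCCGG is the same motif on the other strand.
Psmc1: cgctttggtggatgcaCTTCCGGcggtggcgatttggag
Psmd2: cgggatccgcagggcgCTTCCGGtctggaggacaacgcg
Psmd12: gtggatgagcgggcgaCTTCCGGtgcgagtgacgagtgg
Psmd6: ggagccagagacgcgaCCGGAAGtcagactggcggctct
Psme4: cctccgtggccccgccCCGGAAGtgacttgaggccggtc
Psmg1: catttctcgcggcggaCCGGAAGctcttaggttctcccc
They lie at chr12:100110158-100110196, chr16:20651610-20651648, chr11:107479495-107479533, chr14:14120968-14121006, chr11:30771706-30771744 and chr16:95991007-95991045, in the order shown, and only Psmd6 and Psmg1 are on the minus strand. None of the alpha or beta subunits with a promoter held this motif except Psma6. A match of letters is a description of the sequence and does not show that a factor binds there.

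The core of the antioxidant response element, TGACNNNGC, stood in 6 of the 42 members (14.3%), against 14.0% of all genes and 17.2% of those with at least 1 RPKM. It is shown for Psmb5 and Psmb6, the catalytic subunits treated below, and for Psmd9, a base chaperone.
Psmb5: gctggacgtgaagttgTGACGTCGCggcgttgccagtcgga
Psmb6: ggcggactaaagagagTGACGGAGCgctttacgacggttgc
Psmd9: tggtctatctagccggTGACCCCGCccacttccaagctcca
These windows are chr14:54618018-54618058 on the minus strand and, on the plus strand, chr11:70525332-70525372 and chr5:123228143-123228183.

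Proteasome genes were abundant. Their median was 93.5 RPKM over all 50 members, against 0.975 RPKM over all genes, and 22 of 50 (44%) reached 100 RPKM, against 4.20% of all genes. At least 1 RPKM was reached by 47 members, and 2 members, Psmd11 and Psme2b, were listed at 0 in all 8 columns. Psmb11, the catalytic subunit of thymus epithelium, was below 1 RPKM. Over the 48 members above 0, the median level was 96.9 ± 1.9 RPKM (SD, n = 4), and it lay between 94.6 RPKM in replicate 1 and 99.2 RPKM in replicate 4.

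**Figure D1:**
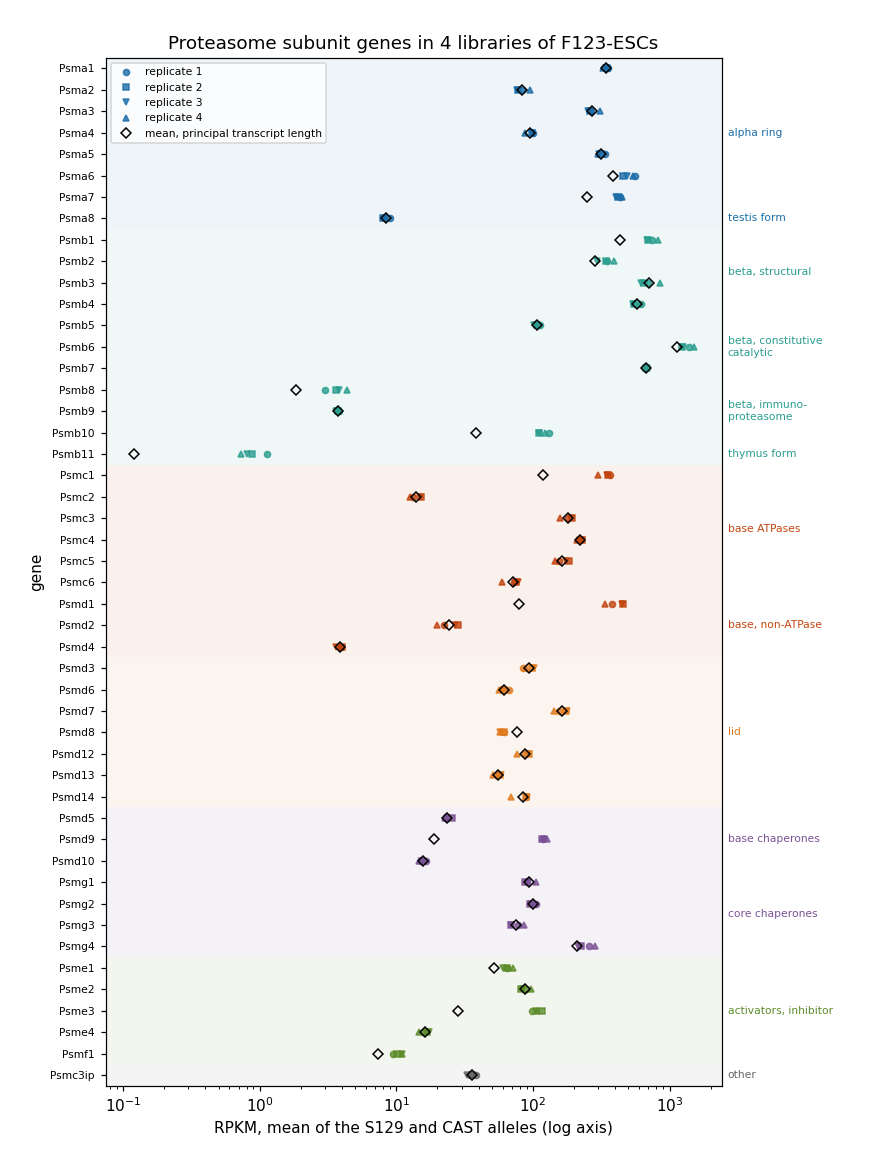
RPKM of the 48 members above 0, grouped by role, as the mean of both alleles in each of the 4 libraries (filled symbols, log axis), with the mean recomputed for the length of the principal transcript (open diamonds). Core beta subunits reach the highest levels (Psmb6 at 1346 RPKM) and the immunoproteasome subunits Psmb8 and Psmb9 lie below 5 RPKM, and the diamonds of Psmd1, Psmd9, Psmb10 and Psmb11 stand well to the left of the deposited values.

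The 3 highest members were all beta subunits of the core. Psmb6, which holds the caspase-like site, was at 1385, 1242, 1255 and 1501 RPKM in replicates 1 to 4, a mean of 1346 ± 122 RPKM (SD, n = 4). The structural subunits Psmb1 and Psmb3 followed, with 738 ± 64 RPKM and 703 ± 105 RPKM, and Psmb7, which holds the trypsin-like site, with 678 ± 3 RPKM. The libraries of Psmb6 did not overlap with those of any other member, whereas those of Psmb1 (684 to 824 RPKM), Psmb3 (615 to 854 RPKM) and Psmb7 (674 to 681 RPKM) did overlap with each other. The 4 structural beta subunits had a median of 641 RPKM and the 7 common alpha subunits a median of 314 RPKM, between Psma2 at 82.8 and Psma6 at 510 RPKM.

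In the regulatory particle, the 6 ATPases of the base had a median of 173 RPKM, between Psmc2 at 13.9 ± 1.2 and Psmc1 at 342 ± 31 RPKM. The lid genes with values lay between 55.3 RPKM (Psmd13) and 163 RPKM (Psmd7), with Psmd14 at 84.4 ± 10.4 RPKM. Of the non-ATPase subunits of the base, the scaffold Psmd1 was listed at 404 ± 57 RPKM and the scaffold Psmd2 at 24.4 ± 3.9 RPKM. Psmd4, a ubiquitin receptor, was at 3.96, 4.03, 3.59 and 3.90 RPKM in replicates 1 to 4, and Psmd11, a lid subunit, is listed at 0. The protein subunits of the particle are present in equal number, which these values do not follow. How many SNPs each transcript carries is not known from the files, and their part in low values such as those of Psmd4 and Psmd11 was not tested.

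The 4 core chaperones were between 75.2 RPKM (Psmg3) and 246 RPKM (Psmg4). Of the base chaperones, Psmd5 was at 23.6 ± 1.3 RPKM and Psmd10, also known as gankyrin, at 15.6 ± 0.8 RPKM. Among the activators, Psme1 and Psme2, which together form an interferon-inducible cap, were at 65.4 ± 4.2 and 88.2 ± 6.4 RPKM. The nuclear activators Psme3 and Psme4 were at 107 ± 7 and 16.1 ± 1.2 RPKM, and the inhibitor Psmf1 was at 10.4 ± 0.8 RPKM. Psme2b, whose coding sequence is 99.3% identical to that of Psme2 over 717 bases, is listed at 0, and how reads that match both were counted is not known. Psmc3ip, the recombination factor, was at 35.6 ± 2.2 RPKM.

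The order of these levels depends on the length used. In 41 of 48 members the deposited values gave whole reads with the length of the first transcript listed for the gene in GENCODE M21, and in 5 of these that transcript is annotated as non-coding. In 6 members the principal transcript, the one annotated as the main coding isoform, is at least 2 times as long as the length used. For Psmd1 the length was that of a retained intron of 613 bp in place of 3112 bp, and with the latter its level is 79.7 RPKM, rank 27 in place of rank 8 among the members. Psmd9 went from 120 to 18.8 RPKM, Psmb10 from 119 to 38.6 RPKM, Psmc1 from 342 to 119 RPKM and Psme3 from 107 to 28.1 RPKM. Psmb6 stayed first with 1128 RPKM, and Psmb1 went from 738 to 435 RPKM, below Psmb3 and Psmb7. The length used for Psmb1, 1036 bp, is the smallest that gives whole reads and matched no listed transcript, so its new place is uncertain. The length cancels in the ratio of the alleles of one gene. It does not cancel in the pseudocount of 0.1 RPKM or in the filter of the allele test below, which matters for low members. With its principal transcript length Psmb11 went from 0.887 to 0.119 RPKM, which lies below that filter.

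In the deposited values, constitutive catalytic subunits stood above their immunoproteasome counterparts in 4 of 4 libraries. Only reads over a SNP are counted, and the part of SNP number in differences between genes was not tested. Psmb5, which holds the chymotrypsin-like site, was at 113, 106, 103 and 108 RPKM in replicates 1 to 4, and its counterpart Psmb8 at 3.01, 3.60, 3.78 and 4.37 RPKM. Psmb9, the counterpart of Psmb6, was at 3.78, 3.71, 3.59 and 3.78 RPKM. Psmb10, the counterpart of Psmb7, was at 132, 110, 111 and 122 RPKM. In the deposited values Psmb10 was thus on the level of Psmb5 (with principal transcript lengths, 38.6 against 108 RPKM), while Psmb8 and Psmb9 rested on 51 to 151 reads per allele and library. On the log2 scale, Psmb5 exceeded Psmb8 by 4.84 ± 0.25, Psmb6 exceeded Psmb9 by 8.46 ± 0.11, and Psmb7 exceeded Psmb10 by 2.52 ± 0.12 (SD, n = 4). The two-sided exact sign-flip test gave p = 0.13 for each pair, and the same after Benjamini-Hochberg adjustment over the 4 pairs compared. It is the smallest p that 4 libraries allow, 2 of the 16 patterns of sign. With principal transcript lengths, the differences were 5.80, 8.20 and 4.14. The length used for Psmb8, 815 bp, was found by search as the smallest that gives whole reads, and a multiple of it may fit as well. Its principal transcript has 1628 bp, so the value of 5.80 and the reads of Psmb8 are uncertain. The coding sequences of the pairs are 65.9%, 65.6% and 62.5% identical.

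Of 12 genes of MHC class I presentation and the interferon response, which act with the immunoproteasome, 8 were at 1 RPKM or more, among them B2m, the light chain of MHC class I, at 149 ± 22 RPKM and Tapbp, of the peptide-loading complex, at 62.9 ± 3.4 RPKM. The peptide transporters Tap1 and Tap2 were at 6.69 and 0.446 RPKM, and the interferon-induced genes Ifit1 and Ifit3 at 0.171 and 0.0585 RPKM. Exons of Tap1 on the opposite strand cover 5.79% of those of Psmb9, and whether the counting used strand is not stated. Blood cell markers, which would accompany immune cells, were at 0.0199 RPKM for Ptprc (CD45), 0.00942 for Cd48 and 0.00279 for Lcp2, whereas Coro1a and Laptm5 were at 11.8 and 12.6 RPKM.

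Psma8 replaces Psma7 in the proteasome of male germ cells. Psma7 was at 432, 420, 403 and 452 RPKM and Psma8 at 8.92, 7.92, 8.28 and 8.29 RPKM in replicates 1 to 4, a difference of 5.66 ± 0.09 on the log2 scale (exact sign-flip test, p = 0.13). With principal transcript lengths this difference was 4.87, which is uncertain, since the length used for Psma7, 531 bp, was the smallest found by search. Germ cell genes were detected beside it: 5 of 5 were at 1 RPKM or more, among them Stra8 at 28.8 ± 1.6 and Ddx4 at 11.01 ± 0.83 RPKM. Psmb11 was at 1.12, 0.883, 0.811 and 0.731 RPKM, from 1 to 26 reads per allele and library.

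Most members differed between the alleles. Tested by limma on log2(RPKM + 0.1) across the 13341 genes with a summed mean of at least 1 RPKM, with Benjamini-Hochberg adjustment, 16 of the 48 members tested (33.3%) favoured S129 and 20 (41.7%) CAST, at an adjusted p under 0.05. Over all genes tested, 31.4% favoured S129 and 31.3% CAST, so that 62.7% passed in either direction, against 75% of the members. The sizes were ordinary: the median absolute difference was 0.32 on the log2 scale for the 47 autosomal members and 0.29 for all 12869 autosomal genes tested, and 10.6% of these members against 12.9% of these genes reached a 2-fold difference. With each column rescaled to one autosomal sum, which moved the median of all genes by 0.10 towards S129, the members split into 20 that favoured S129 (41.7%) and 12 that favoured CAST (25%), against 38.4% and 23.0% of all genes. Of the 36 calls, 8 did not pass when at least 1 of the libraries was left out, and none of these 8 was larger than 0.25. They were Psma1, Psmb1, Psmb9, Psmc2, Psmc3, Psmd12, Psmd14 and Psmg4.

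**Figure D2:**
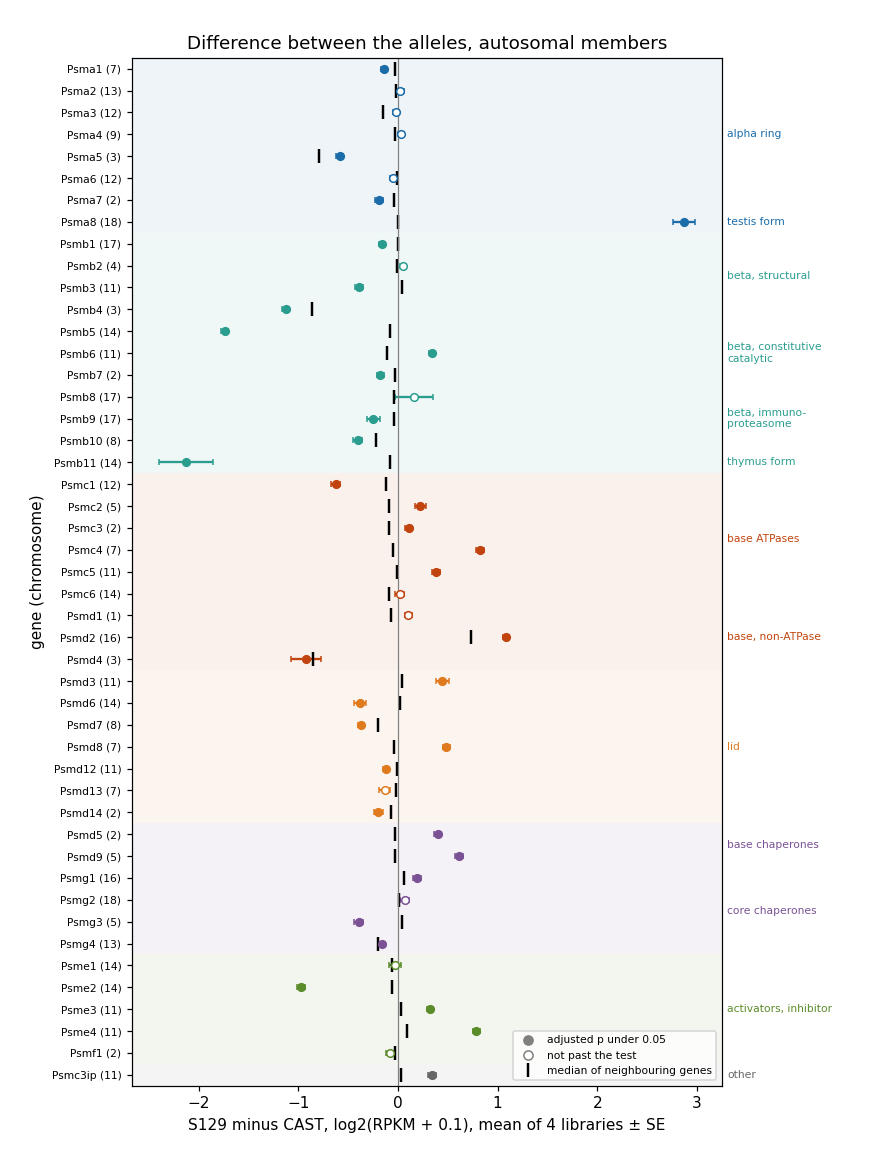
Difference S129 minus CAST of the 47 autosomal members on the log2(RPKM + 0.1) scale, with its SE over 4 libraries and the chromosome in brackets, filled where the adjusted p of limma was under 0.05, and the median difference of neighbouring genes within 5 Mb (black ticks). Psmb5 and Psme2 lie far to the left of their ticks, whereas Psmb4, Psma5 and Psmd4 on chromosome 3 and Psmd2 on chromosome 16 have ticks that are themselves shifted.

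By role, the calls went in both directions, where 31.4% of all genes tested favoured S129 and 31.3% CAST. These shares, here and below, include genes on the X chromosome, of which these male cells carry 1 copy, from S129. None of the common alpha subunits was higher on S129 and 3 of 7 were higher on CAST. Likewise 3 of the 4 structural beta subunits were higher on CAST. Among the base ATPases, 4 of 6 were higher on S129 (Psmc2, Psmc3, Psmc4, Psmc5) and 1, Psmc1, higher on CAST. In the lid, Psmd3 and Psmd8 were higher on S129 and Psmd6, Psmd7, Psmd12 and Psmd14 higher on CAST. The autosomal base chaperones Psmd5 and Psmd9 were both higher on S129. The S129 count of 16 also holds Psmd10, also a base chaperone, which has no CAST copy in these male cells. These counts depend on the scaling. With columns rescaled to one autosomal sum, 8 calls towards CAST did not pass (Psma1, Psma7, Psmb1, Psmb7, Psmb9, Psmd12, Psmd14, Psmg4). In the same setting, 4 members newly passed towards S129 (Psma4, Psmb2, Psmd1, Psmg2). Psma5 turned relative to its neighbours, as given below.

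Psmb5 showed the most pronounced difference towards CAST among members with a level over 1 RPKM. Its gene (mm10 chr14:54614119-54618022, minus strand) was at 50.4, 49.4, 49.2 and 48.9 RPKM on S129 and at 175, 164, 156 and 167 RPKM on CAST in replicates 1 to 4. The groups did not overlap, and the S129 values differed little between libraries. CAST exceeded S129 3.34-fold, with S129 minus CAST at -1.74 ± 0.04 (SE) on the log2 scale and an adjusted p of 1.4e-05 by limma. Its promoter window is among those printed above. The microRNA gene Mir686 lies on the same strand over 12.1% of the exons of Psmb5 and is listed at 0.

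The other catalytic subunits differed less. Psmb6 was higher on S129 in 4 of 4 libraries, with 1504 ± 148 RPKM against 1187 ± 97 RPKM on CAST (log2 difference 0.34 ± 0.03 SE, adjusted p = 0.0012 by limma). Psmb7 was higher on CAST by 0.18 on the log2 scale, with 637 ± 8 RPKM on S129 and 720 ± 11 RPKM on CAST (adjusted p = 0.0095 by limma). Thus Psmb6 was higher on S129 and Psmb5 and Psmb7 on CAST, where 31.4% of all genes tested favoured S129 and 31.3% CAST. Of the immunoproteasome subunits, Psmb9 was at 3.39 ± 0.22 RPKM on S129 and 4.04 ± 0.20 RPKM on CAST, a call (adjusted p = 0.030 by limma) that did not pass without replicate 1, 3 or 4. Psmb8 was at 3.86 ± 0.49 and 3.52 ± 1.11 RPKM and did not pass the test. In replicate 4 alone its CAST value, 5.14 RPKM, exceeded that of S129, 3.60 RPKM, and without this library Psmb8 was higher on S129 by 0.39 on the log2 scale (adjusted p = 0.017 by limma).

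Psme2, on the same chromosome as Psmb5 (chr14:55587441-55591113, minus strand), was at 60.5, 55.6, 59.1 and 62.6 RPKM on S129 and 118, 108, 111 and 131 RPKM on CAST. The log2 difference was -0.97 ± 0.04 (SE; adjusted p = 8.4e-05 by limma). Its partner Psme1 (chr14:55578123-55581529) was at 64.8 ± 7.0 and 66.0 ± 1.6 RPKM, a log2 difference of -0.03 ± 0.06 that did not pass the test. The other activators with a call, Psme3 and Psme4, were both higher on S129. Psme4 was at 19.9, 21.5, 21.6 and 18.8 RPKM on S129 and 11.7, 12.2, 13.0 and 10.4 RPKM on CAST, and thus did not overlap between the alleles (log2 difference 0.79 ± 0.04, adjusted p = 0.00013 by limma).

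Psmc4, an ATPase of the base on chromosome 7 (chr7:28041707-28050101), was at 290, 290, 287 and 265 RPKM on S129 and 151, 166, 168 and 154 RPKM on CAST. S129 exceeded CAST by 0.82 ± 0.04 (SE) on the log2 scale (adjusted p = 0.00019 by limma), whereas Psmc1 (chr12:100110154-100123405) had 269 ± 23 RPKM on S129 and 415 ± 42 RPKM on CAST. Psmc4 and Psmc1, of the same ring, thus differed in opposite directions, where 31.4% of all genes tested favoured S129 and 31.3% CAST. Psma8 had the strongest difference of an autosomal member towards S129, with 16.1, 13.8, 14.9 and 14.4 RPKM on S129 and 1.76, 2.09, 1.70 and 2.23 RPKM on CAST, a log2 difference of 2.87 ± 0.11 (SE; adjusted p = 7.5e-05 by limma). Psmb11 was towards CAST with 13 to 26 reads, against 1 to 10 reads on S129 (adjusted p = 0.0029 by limma). This holds for the length used, 571 bp, and with its principal transcript, 4247 bp, Psmb11 would not have been tested. Psmc3ip was higher on S129 by 0.34 ± 0.04 (adjusted p = 0.0018 by limma), and exons of Mlx on the opposite strand cover 21.2% of its own.

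**Figure D3:**
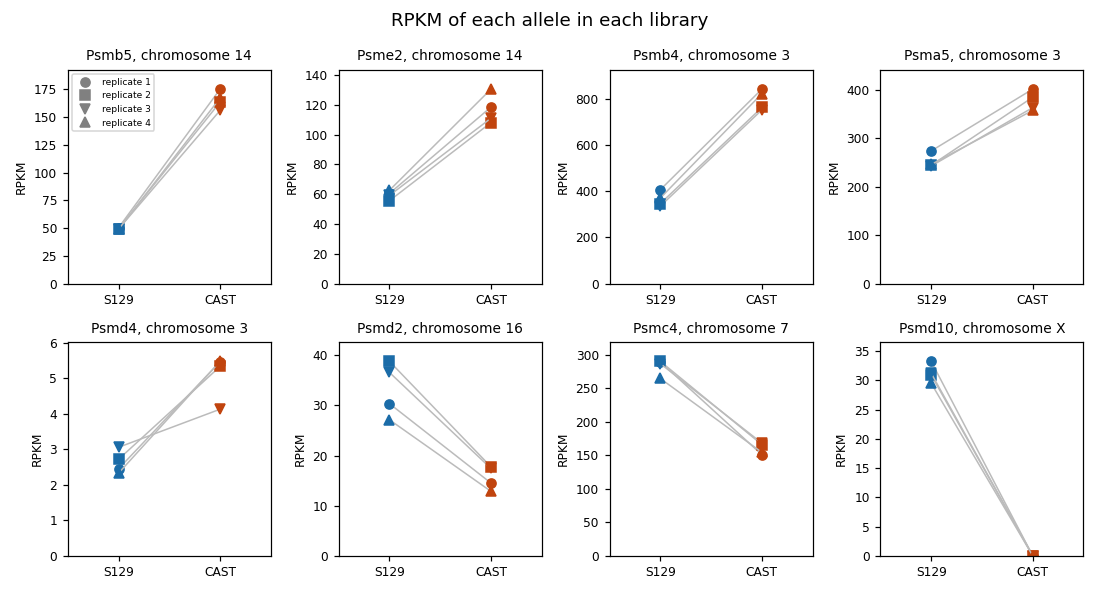
RPKM of the S129 and the CAST allele in each library (symbols, joined within a library, axes from 0) for 8 members. CAST lies above S129 in all libraries of Psmb5, Psme2, Psmb4, Psma5 and Psmd4, S129 above CAST in all libraries of Psmd2 and Psmc4, and the CAST values of Psmd10 on chromosome X lie at 0 or, in replicate 2, at 0.028 RPKM.

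Psmd10 is the only member on the X chromosome (chrX:140948429-140956728), of which these male cells carry 1 copy, from the S129 mother. It had 1368, 1135, 1096 and 734 reads on S129 and 0, 1, 0 and 0 reads on CAST in replicates 1 to 4, and its mean over the alleles counts an absent copy.

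Genes along a stretch of chromosome can share a difference between the alleles, so each autosomal member was also set against the median difference of other genes that lie within 5 Mb. For 43 members this median was between -0.22 and 0.09 on the log2 scale. For 4 it was farther from 0. Around Psma5, Psmb4 and Psmd4 on chromosome 3, the medians of 56, 98 and 96 neighbouring genes were -0.79, -0.86 and -0.85, and around Psmd2 on chromosome 16 the median of 101 genes was 0.73.

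These members changed most when their neighbours were taken out. Psmb4 (chr3:94884093-94886961) was at 406, 346, 335 and 370 RPKM on S129 and 841, 762, 751 and 821 RPKM on CAST, a log2 difference of -1.13 ± 0.04, of which -0.26 ± 0.03 remained relative to its neighbours (adjusted p = 0.0036 by limma). Psmd4 (chr3:95032694-95042614) went from -0.92 ± 0.15 to -0.07 ± 0.15, which did not pass the test. Psma5 (chr3:108256926-108279974) was at 273, 244, 242 and 246 RPKM on S129 and 401, 384, 363 and 357 RPKM on CAST, a log2 difference of -0.58 ± 0.04. Relative to its neighbours its direction turned, to 0.21 ± 0.04 (adjusted p = 0.015 by limma). Psmd2 (chr16:20651652-20663414), at 30.3, 38.8, 36.6 and 27.1 RPKM on S129 and 14.5, 17.7, 17.4 and 12.8 RPKM on CAST, went from 1.08 ± 0.03 to 0.35 ± 0.03 (adjusted p = 0.0015 by limma).

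The other 43 members changed less on the log2 scale, since the medians of their neighbours were between -0.22 and 0.09. For some of them this was still a large part of the difference. Psmg1, the other member on chromosome 16, went from 0.19 ± 0.04 to 0.13 ± 0.03, and on chromosome 8 Psmb10 went from -0.40 ± 0.05 to -0.18 ± 0.05 and Psmd7 from -0.37 ± 0.03 to -0.18 ± 0.04. Psmb5 kept -1.66 ± 0.04, Psme2 -0.91 ± 0.04, Psmc4 0.87 ± 0.04 and Psme4 0.70 ± 0.04. Relative to neighbours, 18 of 47 members (38.3%) favoured S129 and 13 (27.7%) CAST, where all 12776 genes gave 28.9% and 27.3%. Of the autosomal calls, 28 were kept with the same direction, 6 were lost (Psma1, Psmb7, Psmb9, Psmd4, Psmd14, Psmg4), 1 turned (Psma5), and Psma3 and Psmd1 were gained.

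Between libraries, core subunits mostly moved apart from regulatory subunits and from other protein-coding genes, whose counts are given after those of the members. The CV over the 4 libraries was between 0.49% (Psmb7) and 15.9% (Psmd2) for the 47 members with at least 1 RPKM, with a median of 7.61%. For the 5636 protein-coding genes with at least 10 RPKM, a higher threshold, the median was 8.57%. In replicate 4, 14 of the 18 core subunits were above their own mean of the libraries, by a median of 0.06 on the log2 scale, and 15 of the 16 subunits of the regulatory particle were below it, by a median of 0.18. In replicate 2, 15 of the 18 core subunits were below their mean and 16 of 16 regulatory subunits above it, and in replicate 3 these were 15 and 13. In replicate 1, 14 core subunits were above their mean, and the regulatory ones split into 8 above and 8 below. Psmb3 was at 854 RPKM in replicate 4 and 615 to 691 RPKM in the others, and Psmd14 at 68.8 RPKM in replicate 4 and 88.4 to 90.7 RPKM in the others.

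**Figure D4:**
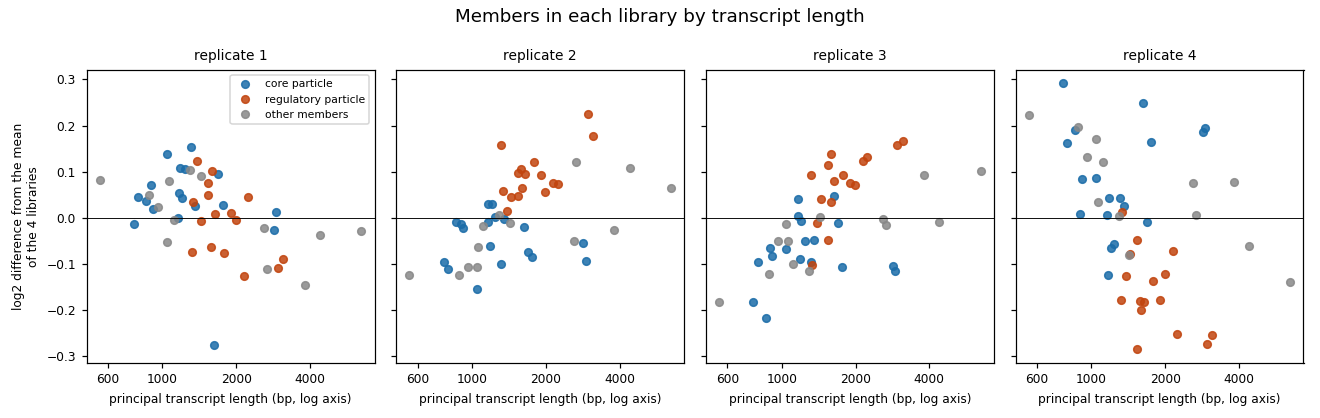
Log2 difference of each member with at least 1 RPKM from its mean over the 4 libraries, against the length of its principal transcript (bp, log axis), 1 panel per library. In replicate 4 the core subunits (blue) lie mostly above 0 and the regulatory subunits (red) below 0, and in replicates 2 and 3 the order is the opposite.

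In replicates 2, 3 and 4, other protein-coding genes with at least 1 RPKM mostly lay on the same side as the regulatory particle. Of these 11065 genes, 8284 were below their mean in replicate 4, 8165 above it in replicate 2 and 8642 above it in replicate 3. In replicate 1, 6931 were below it. Transcript length moved with this split. Core subunits have a median principal transcript of 1192 bp and regulatory ones of 1614 bp, and across the 47 members the deviation in replicate 4 had a Pearson r of -0.41 and a Spearman rho of -0.48 with length. For the other protein-coding genes these were -0.36 and -0.30, and the 3688 shortest of them, up to 2217 bp, deviated by a median of -0.01 and the 3689 longest by -0.12. These values describe genes that share 1 library. The part of length in the split was not tested. Replicate 4 is the shallowest library and replicate 1 the deepest. In both, 14 of the 18 core subunits were above their means. Of the 16 regulatory subunits, 1 was above its mean in replicate 4 and 8 in replicate 1. The part of depth in the split was not tested either.

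Genes of the pathway outside the name rule were described by lists of known members. Of 9 measured proteasome genes with other symbols, 9 were at 1 RPKM or more, with Sem1, a small lid subunit, at 712 ± 100 RPKM, the core chaperone Pomp at 150 ± 13 RPKM and the deubiquitinase Usp14 at 94.1 ± 7.8 RPKM. The ubiquitin receptor Adrm1 was at 13.9 ± 1.2 RPKM. Of these 9 genes, 3 were higher on S129 and 1, Usp14, on CAST, where all genes tested gave 31.4% and 31.3%. Of the regulators, Nfe2l1 was at 16.04 ± 2.47 RPKM, its protease Ddi2 at 1.03 ± 0.10 RPKM and Vcp, which extracts ubiquitinated proteins, at 79.7 ± 11.9 RPKM. Regulators were higher on S129 in 3 of 5 cases and on CAST in none, too few genes to set against these shares. Among them, Vcp had a log2 difference of 1.18 ± 0.03 (SE; adjusted p = 2.4e-05 by limma).

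Among 8 tested autosomal genes of ubiquitin, its activating enzymes and its shuttles, 2 were higher on S129 and 4 on CAST. All genes tested, those on the X chromosome included, gave 31.4% and 31.3%. Uba1 and Ubqln2, also of this list, are on the X chromosome and have no CAST copy in these cells. Ubb, a polyubiquitin gene, was at 138 ± 13 RPKM and higher on S129 by 2.01 ± 0.04 (SE) on the log2 scale (adjusted p = 1.1e-05 by limma). Uba1, the main activating enzyme, was at 54.9 ± 4.4 RPKM.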

How the data were processed

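RNAseq of 4 libraries of untreated F123-ESCs was analysed. The authors removed ribosomal RNA reads, trimmed with Trimmomatic (0.40), aligned with STAR to mm10 masked at SNPs, split reads by SNPsplit and deposited RPKM per gene and allele. The counting program, its annotation and its use of strand are not given in the sources used here. Columns were matched to libraries by allele and number. Averages and their log10 were not used, and 0 columns belonged to other samples.

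Of 24026 identifiers, 23995 matched GENCODE M21 (mm10). Totals, lengths and reads were worked back from the spacing of the RPKM values (99.5% of 20228 genes whole within 0.02 reads), which for 5 members needed a search of lengths, so that their reads are the fewest possible. No molecular identifiers were used, so reads may repeat a molecule. A gene of 1 kb with 1 read has 0.0348 to 0.0598 RPKM.

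Alleles were compared by limma (3.58.1, R 4.3.3) on differences of log2(RPKM + 0.1) within libraries, which understates changes of low genes, for genes whose alleles together averaged 1 RPKM or more. The replicate is a block by construction, since both columns are reads of one library. Their deviations correlated by 0.155 to 0.278 within a number and by -0.249 to 0.223 between numbers, over 10915 genes. Neighbours were other tested autosomal protein-coding genes within 5 Mb (10 or more), without members. Pairs of subunits were compared by exact sign-flip tests. The recovery, limma, the neighbour median and the sign-flip test were tested on simulated data. No 2 libraries agree within counting noise (chi-square per degree of freedom 5.80 or more over 14371 genes).

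Members, lists and alternatives were chosen with earlier results of these data known. The members named with full values are the 3 highest and lowest, catalytic subunits and their inducible forms, the 5 largest differences in each direction, those on chromosomes 3, 6 (none), 8, 16 and X, and Psmc3ip. Other genes of the text serve as examples of their role, chosen after their values were seen. Alternatives were another pseudocount, filter, scaling or length, whole reads, no replicate block and each library left out. A variance trend, principal transcript lengths and neighbours within 2 Mb were added after seeing the data. Some genes of these lists are not reported here.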

Additional observations from a re-analysis of the deposited data

Results flagged for a closer look

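With 96 groups of 4 libraries examined (48 levels and 48 differences between the alleles), 4 held a library far from the other 3, where chance gives about 1 in 20, or 4.8. All 4 are replicate 4, the shallowest library. The level of Psma4 was 87.9 RPKM in replicate 4 and 97.8 to 99.4 RPKM in the others, and that of Psmd14 was 68.8 RPKM against 88.4 to 90.7 RPKM. The log2 difference between the alleles was -0.0052 in replicate 4 for Psmb2, against 0.06 to 0.07 in the others, and 0.023 in replicate 4 for Psmd1, against 0.13 in each of the others. Without replicate 4, Psmd1 was higher on S129 by 0.13 (adjusted p = 0.039 by limma), which with 4 libraries did not pass.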

How the results depend on the processing

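The differences between alleles were computed for the 48 tested members under 12 alternatives, which gave 572 values: 503 kept their direction and side of the threshold, 48 no longer passed, 12 newly passed and 9 turned. Relative to neighbours within 5 Mb, Psma5 (0.21) and Psma3 (0.13) turned and passed the test, and Psmg4 (0.033) and Psme1 (0.029) turned and did not pass. With columns rescaled to one autosomal sum, Psma3 (0.083), Psma6 (0.057), Psme1 (0.070) and Psmf1 (0.025) turned, and without replicate 4 Psmc6 (-0.022; -0.022 to 0.043 over the libraries left out), none of which passed with or without the change. The 20 members higher on CAST became 12 under the rescaling, where calls towards CAST among all genes went from 4182 to 3072, and 13 relative to neighbours. Without the replicate block, 13 members were higher on S129 and 14 on CAST, and the 9 calls lost were all of 0.22 or less. The 13 members below their neighbours were 8 to 9 with a library left out, 8 of them without replicate 1 and without replicate 3. The median level of 96.9 RPKM was 46.6 RPKM with exon-union lengths, 87.8 RPKM with principal transcript lengths and 99.3 RPKM over members with at least 1 RPKM. The 4 pairs of subunits kept their direction under the alternatives run, while their tests could not pass at this number of libraries. Depth limits Psmb8, Psmb9, Psmb11 and Psmd4, and only reads over a SNP are counted.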

Other observations

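Exons of 15 members share bases with those of another gene, in 12 members with one on the opposite strand. Psmd9 shares 25.5% of its exon bases with the noncoding gene Gm26745, Psmb7 11.8% with Nek6 (2.67 RPKM), Psmd13 10.1% with Sirt3 (15.2 RPKM) and Psmc3 8.25% with Slc39a13 (5.88 RPKM), all on the opposite strand. Nek6, Sirt3 and Slc39a13 were at lower levels than the members beside them. Mlx, at 30.8 RPKM, was close to Psmc3ip at 35.6 RPKM, and Tap1, at 6.69 RPKM, was above Psmb9 at 3.72 RPKM. The part of these genes in the values of the members was not tested.

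Motifs of the interferon response were also looked for in the promoters. That of the interferon-stimulated response element (GAAA, any 2 bases, GAAA) stood in 5 of the 42 members with a promoter (Psmb3, Psmd4, Psmd9, Psme1, Psmg4), against 3.99% of all genes, and TTCNNNGAA, of the gamma-activated site, in 3 (Psmb8, Psmd2, Psmg1), against 9.55%. CCAAT stood in 15 of 42, or 35.7%, against 41.1% of all genes. Both strands were searched. No match in a window says only that these letters are absent from it.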
